A study of Sus scrofa with 3 samples.

Results

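miR-219 and miR-138 are neural miRNAs, and 3 of the 152 conserved miRNAs listed for porcine skeletal muscle belong to them: miR-219-3p, miR-138-5p, and miR-138-3p. They were found by the number that most of their listed precursors in other mammals carry. This pair was selected on its reads, after miR-219-3p and miR-138-5p had been seen to be highest in the intermediate muscle, so the differences between muscles are given as a description with no test. Small RNA was sequenced from the psoas major muscle (PMM, the intermediate fiber type), the longissimus dorsi muscle (LDM, the white fiber type), and the peroneal longus (PL, the red fiber type). All came from untreated female Landrace pigs at 210 days of age. With 1 library a muscle, the data hold no measure of how animals differ. The PL library was a pool of RNA from 3 pigs and was sequenced for this study, while PMM and LDM were data of an earlier study of the same pigs, so that the sequencing batch and the contrast with PL cannot be told apart. Whether PMM and LDM were pooled is not given in the sources used here.

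miRNAs guide the silencing of mRNAs, mainly through pairing of the seed, bases 2 to 8 from the 5' end. A precursor hairpin gives a 5p and a 3p arm, of which one is usually the more abundant. miR-219 is best known from the brain, where in mice it promotes the maturation of oligodendrocytes, the cells that form myelin in the central nervous system. Its 5p arm has no entry here, so this role need not be that of the arm measured, miR-219-3p. miR-138 is abundant in neurons, and in rat hippocampal neurons it limits the growth of dendritic spines. In mice it also rises as oligodendrocytes mature. Skeletal muscle holds motor axons, their Schwann cells, and sensory endings beside the muscle fibers.

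The mature sequences are shown because their seeds and their overlaps decide what can be compared. They are given 5' to 3' as the table lists them, with T for U and the seed in capitals. The last pair, miR-2964a, lies on the opposite strand of the miR-219 locus.

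miR-219-3p: aGAATTGTggctggacatctgt
miR-138-5p: aGCTGGTGttgtgaatcaggccga
miR-138-3p: gCTATTTCacgacaccagggt
miR-2964a-5p: aGATGTCCagccacaattctcg
miR-2964a-3p: aGAATTGCgtttggacaatcagt

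The 3 members have 3 different seeds, and no other listed miRNA carries any of them. miR-219-3p is 22 nt long with 45.5% G and C, miR-138-5p 24 nt with 54.2%, and miR-138-3p 21 nt with 52.4%. Among the 108 unique miRNAs with at least 3 reads over the libraries, 40.7% were 22 nt and 3.70% were 24 nt long. miR-2964a-3p begins with the same 7 bases as miR-219-3p, and their seeds differ by T8C (base of miR-219-3p, position from the 5' end, base of miR-2964a-3p).

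The hairpins follow as listed, with the mature sequences of this table in capitals. The first is that of miR-219 and the second that of miR-138.

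miR-219 precursor: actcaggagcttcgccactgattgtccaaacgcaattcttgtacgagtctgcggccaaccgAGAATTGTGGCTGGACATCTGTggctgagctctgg
miR-138 precursor: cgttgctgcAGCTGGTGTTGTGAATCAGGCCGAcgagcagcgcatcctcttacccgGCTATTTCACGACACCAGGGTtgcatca

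All 3 mature sequences were found without a mismatch in their listed precursors. miR-219-3p takes bases 62 to 83 of a precursor of 96 nt, which the table places on chromosome 1 from 302806847 to 302806943, on the minus strand (Sscrofa10.2 in the paper, Sscrofa10 in the heading of the table). The table also writes bases 19 to 40 of this precursor, the stretch of the 5p arm, in capitals, but it has no entry for that arm. miR-138 is placed on the minus strand of an unplaced scaffold, from 3060 to 3169. This span is 110 nt, against a listed precursor of 84 nt for miR-138-3p and of 83 nt for miR-138-5p. The predicted folds had a minimum free energy of -46.8 kcal/mol for the miR-219 precursor and -34.4 kcal/mol for that of miR-138. In these folds, 19 of the 22 bases of miR-219-3p were paired, and 18 of the 24 bases of miR-138-5p. RefSeq (Sscrofa11.1) names MIR219A on chromosome 7, MIR219B on chromosome 1 between the coding genes URM1 and CERCAM, and MIR138 on chromosome 13. As the builds differ, the entries of the table were not placed on these genes. The known porcine miRNAs were not analysed here, so the reads of any miR-219 or miR-138 sequence among them were not measured.

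Reads were scaled to the raw reads of each library (RPM, reads for every 1 M raw reads), so that 1 read is 0.0542 RPM in PMM, 0.0602 RPM in LDM, and 0.109 RPM in PL, the least deeply sequenced library. The conserved miRNAs held 16286 reads in PMM, 12463 reads in LDM, and 23583 reads in PL. Of these, miR-26b-5p alone held 10208 in PMM, 7833 in LDM, and 21348 in PL. A limit of 3 reads was taken as the floor for a library with no read, which is 0.163 RPM in PMM, 0.181 RPM in LDM, and 0.327 RPM in PL. Intervals are exact 95% intervals and cover counting error only, as reads were not counted by molecule. Of the 8 muscle miRNAs set as markers, miR-1 and miR-208a were listed here, and they ran in opposite directions. miR-1-3p had 48.3 RPM in PMM, 79.3 RPM in LDM, and 4.80 RPM in PL, while miR-208a-3p had 0.704 RPM in PMM, 0.0602 RPM in LDM, and 12.9 RPM in PL. The other 6, such as miR-133a and miR-206, have no entry in this table.

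miR-219-3p was present in PMM and LDM and had no read in PL. It had 181 reads in PMM, 21 in LDM, and 0 in PL. This is 9.80 RPM in PMM (8.43 to 11.3), 1.26 RPM in LDM (0.782 to 1.93), and at most 0.402 RPM in PL. These intervals do not overlap, but they cover counting error in single libraries only. As miR-219-3p was selected on these reads, no order of the muscles is read from them. In this bulk tissue, fewer cells that make miR-219 and less of it per cell cannot be told apart. miR-219-3p ranked 10th by reads among the 114 conserved miRNAs with reads in PMM and 27th of 108 in LDM. It thus stood among the most abundant conserved entries of PMM and lower down in LDM.

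The level of miR-219-3p in PMM was 7.76-fold that in LDM (4.93 to 12.8). With PL set at the floor of 3 reads, the ratio was 29.97 for PMM over PL and 3.86 for LDM over PL. These are values at the floor and not limits, and the exact interval of the ratio begins lower, at 24.1 for PMM over PL and at 2.87 for LDM over PL. At the depth of PL, the 181 reads of PMM correspond to 89.9 reads and the 21 reads of LDM to 11.6 reads. The conserved miRNAs as a whole were not level between libraries. Over the 83 miRNAs with a ratio, the median PMM over LDM was 1.63, or 0.71 on the log2 scale. Relative to the median of its own comparison, the ratio of miR-219-3p was 4.75 for PMM over LDM, and, at the floor, 28.1 for PMM over PL and 5.25 for LDM over PL. By size it was the 5th highest of these 83 ratios, and among the 24 miRNAs with at least 100 reads and a ratio it was the 2nd highest. It met the minimum of 100 reads through its 181 reads in PMM. Because miR-219-3p was selected on these reads, nothing is read from its ranks or its place relative to the medians.

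**Figure D1:**
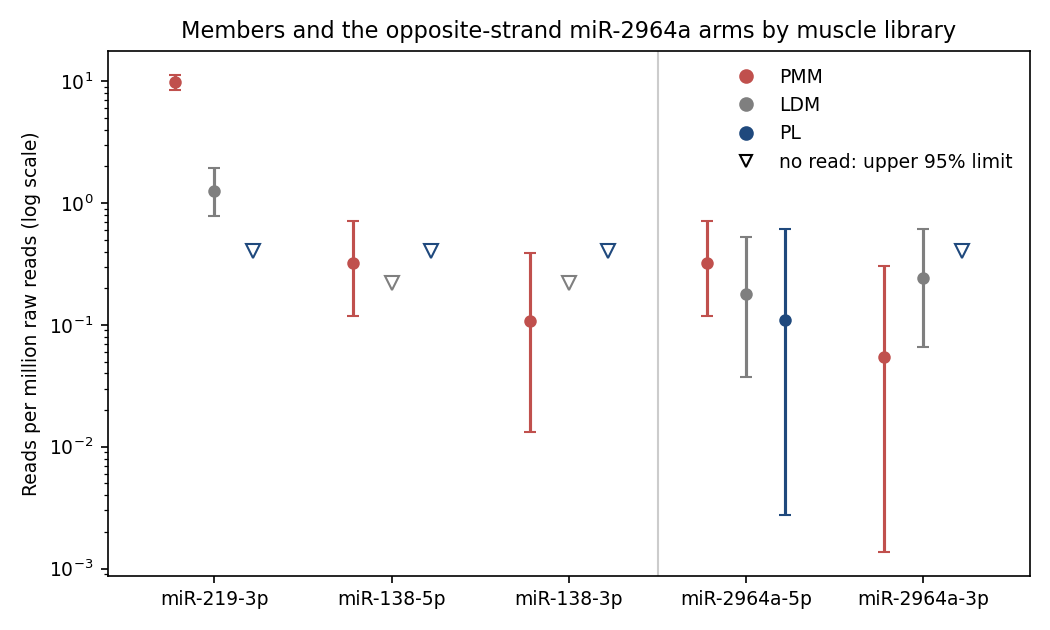
RPM (log scale) of the 3 members and of both arms of miR-2964a in PMM, LDM, and PL. Points are single libraries with exact 95% Poisson intervals, and open triangles mark the upper limit of a library with no read. miR-219-3p has 9.80 RPM in PMM, 1.26 RPM in LDM, and no read in PL. The points of the 4 other entries reach at most 0.325 RPM.

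miR-138 was listed with reads in PMM alone. miR-138-5p, the arm that acts in neurons, had 6 reads in PMM (0.325 RPM, 0.119 to 0.707), 0 in LDM (at most 0.222 RPM), and 0 in PL (at most 0.402 RPM). miR-138-3p, the other arm of this hairpin, had 2 reads in PMM (0.108 RPM, 0.0131 to 0.391) and none in LDM and PL. The interval of each arm in PMM overlaps the limits of LDM and PL. With LDM set at the floor, the ratio of miR-138-5p was 1.80 for PMM over LDM. The exact interval begins at 1.06 with the 0 reads listed in LDM, but runs from 0.385 to 11.1 with LDM at 3 reads. The ratio was 1.46 with LDM at its upper limit of 0.222 RPM, an alternative chosen after seeing the data. Other library totals gave values as low as 1.29. No difference from PL was detectable at this depth, because the 6 reads of PMM correspond to 2.98 reads at the depth of PL. For miR-138-3p no ratio is given, as its 2 reads lie under the floor. Of the 8 reads of the hairpin in PMM, 75.0% were from the 5p arm (Clopper-Pearson interval 34.9% to 96.8%). miR-138-5p was 1 of 3 miRNAs, among the 108, that had reads in PMM alone, against 2 in LDM alone and 0 in PL alone. Since miR-138-5p was selected on its reads and entered the 108 through PMM alone, nothing is read from this count. PL was also the least deeply sequenced.

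Of the members, miR-219-3p and miR-138-5p had the 3 reads needed to enter the 108 unique miRNAs compared. In PMM over LDM, miR-219-3p had a ratio above 1.5 under every library total tried. miR-138-5p was above it at the floor, but not with LDM at its upper limit or with 2 of the 4 other totals. Of the 108 miRNAs, 42.6% exceeded this ratio, or 46 miRNAs, and 25 did with TMM, a scaling by trimmed means. In PMM over PL, miR-219-3p was past this ratio and miR-138-5p was not at the floor, with 32.4% of the 108 past it, or 35 miRNAs against 58 with summed conserved reads as the total. With that total the ratio of miR-138-5p was 2.90, and with miR-26b left out of the sum it was 0.726. In LDM over PL, miR-219-3p was past 1.5, as were 22.2% of the 108, or 24 miRNAs against 48 with summed conserved reads. miR-138-5p had no read in LDM or PL. As the members were selected on these reads, their count is not read against these shares. With LDM at the floor, the ratio of miR-138-5p for PMM over LDM lies close to the median of 1.63. That of miR-219-3p, with 21 reads in LDM, lies far above it. For the same reason, neither place relative to the median is read as a result.

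**Figure D2:**
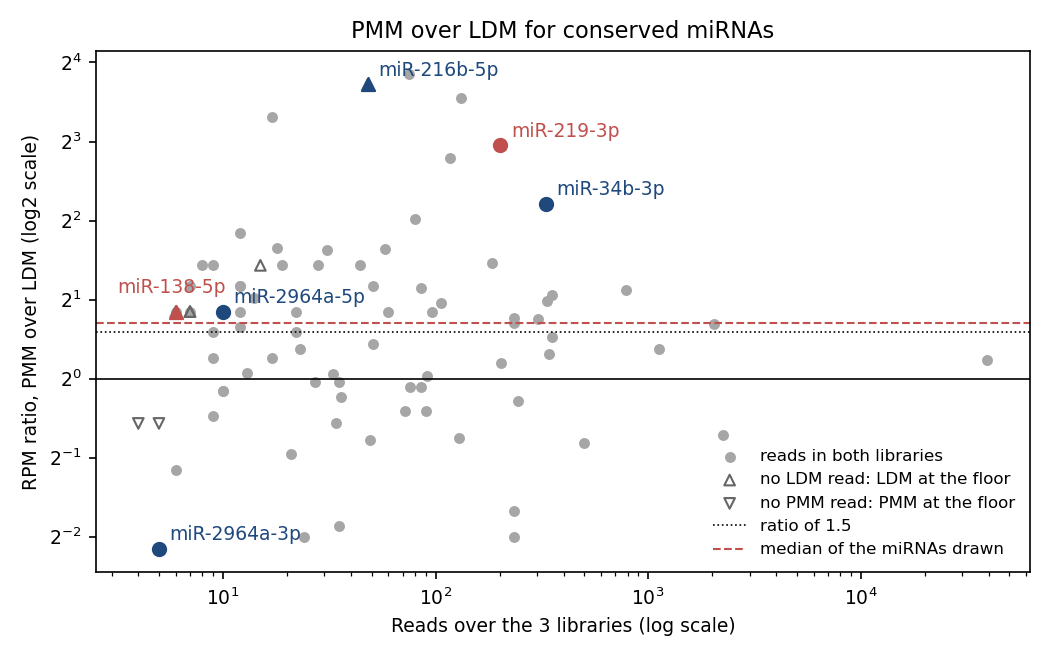
RPM ratio of PMM over LDM (log2 scale) against the reads summed over the 3 libraries (log scale) for the 83 conserved miRNAs with a ratio. Each point is 1 miRNA, triangles are ratios at the floor where 1 library has no read, the dashed line is the median of 1.63, and the dotted line is a ratio of 1.5. miR-219-3p lies at 7.76 with 202 reads, whereas miR-138-5p lies near the median with 6 reads.

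The opposite strand of the miR-219 locus has an entry too, miR-2964a, with few reads in any library. It is listed on the plus strand of chromosome 1 from 302806848 to 302806944, and this is the only place of the table where entries of opposite strands overlap, entries on unplaced scaffolds aside. The precursor of miR-219 and the reverse complement of that of miR-2964a share a run of 85 bases, out of 96 and 88. Accordingly, 20 bases of miR-219-3p are complementary to miR-2964a-5p without a gap. The 5p stretch of the miR-219 precursor is complementary to miR-2964a-3p over 21 bases.

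miR-2964a-5p had 6 reads in PMM, 3 in LDM, and 1 in PL. miR-2964a-3p had 1 read in PMM, 4 in LDM, and 0 in PL. Summed over both arms, miR-2964a had 7 reads in PMM, 7 in LDM, and 1 in PL, and its ratio of PMM over LDM was 0.900 (0.269 to 3.01). For miR-219-3p this ratio was 7.76 (4.93 to 12.8), and the difference between the strands was not tested. Within a library the strands can be compared without any scaling. miR-219-3p made up 96.3% of the 188 reads of the locus in PMM (Clopper-Pearson interval 92.5% to 98.5%) and 75.0% of 28 reads in LDM (55.1% to 89.3%). In PL the locus had 1 read, from miR-2964a-5p. Whether the authors' mapping by BLAST kept the strand of a read is not given in the sources used here.

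**Figure D3:**
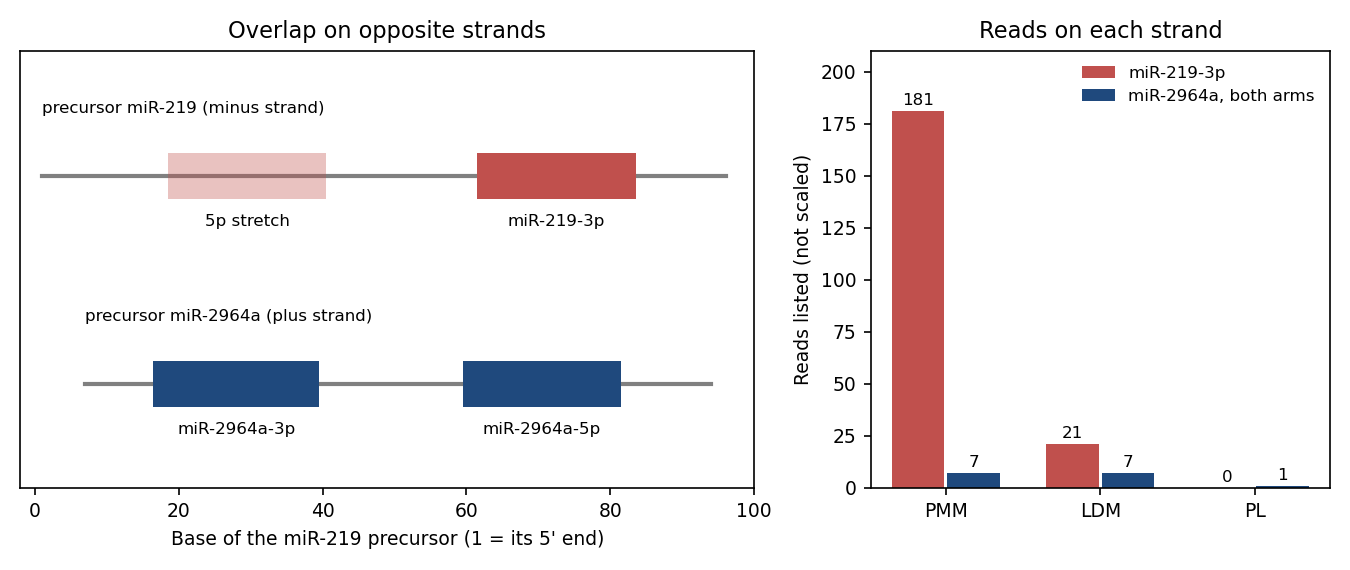
Left, the overlap of the miR-219 and miR-2964a precursors, drawn in bases of the miR-219 precursor from its 5' end, with mature sequences as filled bars and the 5p stretch that has no entry in pale red. Right, reads listed per library, not scaled, for miR-219-3p and for both arms of miR-2964a. miR-219-3p has 181 reads in PMM and 21 in LDM, while miR-2964a has 7 in each.

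The 3 other neural miRNAs with an entry had at most 18 reads in a library. Their sum showed no difference between PMM and LDM that was detectable at this depth. It adds miRNAs that ran in opposite directions, miR-488-3p, with more reads in LDM, and miR-153-3p, with reads in PMM and none in LDM. The neural list holds 14 miRNAs, of which 5 are in this table with 6 arms: miR-219-3p, both arms of miR-138, miR-153-3p, miR-383-5p, and miR-488-3p. Widely used markers such as miR-9, miR-124, and miR-128 have no entry here, so their levels were not measured. Neither has miR-338, which acts beside miR-219 in oligodendrocytes of mice. miR-488-3p, abundant in brain, had 5 reads in PMM, 18 in LDM, and 1 in PL, and its PMM over LDM ratio was 0.250 (0.0726 to 0.699). It thus lay on the other side of 1 from miR-219-3p. miR-153-3p, which lowers the amyloid precursor protein and alpha-synuclein in neurons, had 9 reads in PMM, 0 in LDM, and 6 in PL. Its level was 0.488 RPM in PMM and 0.654 RPM in PL, a ratio of 0.745 for PMM over PL (0.237 to 2.54). It was thus detected in the red muscle, where the members had no read. miR-383-5p had 2 reads in PMM, 1 in LDM, and 0 in PL, too few for a ratio.

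Without the members, the neural list summed to 16 reads in PMM, 19 in LDM, and 7 in PL. For these sums the ratio was 0.758 for PMM over LDM (0.365 to 1.56) and 1.14 for PMM over PL (0.442 to 3.26). With the members the ratio was 4.61 for PMM over LDM (3.28 to 6.65), and 181 of the 205 reads of the list in PMM were from miR-219-3p. Of the 5 arms with at least 3 reads, 3 were over 1.5-fold higher in PMM than in LDM and 1 was over 1.5-fold lower, with 42.6% of the 108 miRNAs over 1.5-fold higher. Since 2 of these 3 arms are the selected members, nothing is read from that count. The third was miR-153-3p, at 2.70 with LDM at the floor. With its 0 reads in LDM, the exact interval of this ratio begins at 1.78.

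**Figure D4:**
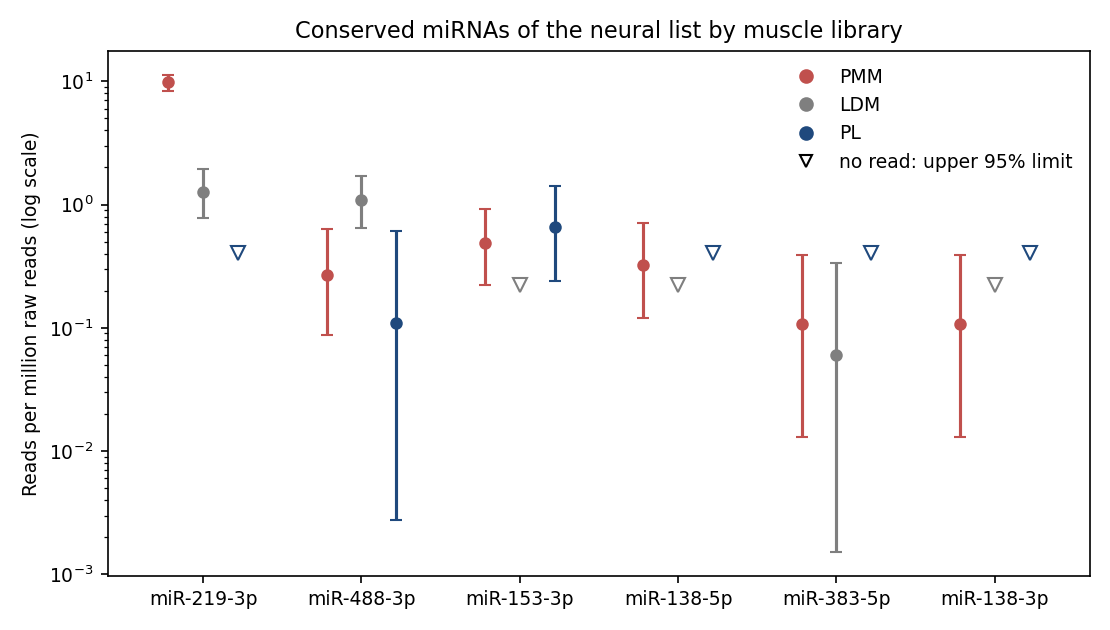
RPM (log scale) of the 6 listed arms of the neural list in PMM, LDM, and PL, 1 library each, with exact 95% Poisson intervals. Open triangles mark the upper limit where a library has no read. miR-488-3p is highest in LDM and miR-153-3p is found in PMM and PL, unlike miR-219-3p.

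The miRNAs most like miR-219-3p were sought among the 53 others with at least 20 reads, by how their RPM is divided over the 3 libraries. Of the summed RPM of miR-219-3p, 88.6% was in PMM and 11.4% in LDM. The likeness measure is the share of this profile that would have to be moved between libraries, so that 0 means the same profile, and it rests on 3 libraries only. miR-34b-3p, a target of p53 and abundant in ciliated epithelium, was closest at 0.0633, with 278 reads in PMM, 54 in LDM, and 0 in PL. miR-200c-3p, an epithelial miRNA, followed at 0.129, with 45 reads in PMM, 13 in LDM, and 0 in PL. miR-34b-5p had 24 reads in PMM, 7 in LDM, and 0 in PL, at 0.131. miR-216b-5p, best known from pancreas, had 44 reads in PMM, 0 in LDM, and 4 in PL, at 0.155. miR-376d-5p had 35 reads in PMM, 14 in LDM, and 2 in PL, at 0.245.

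Markers of epithelial and ciliated cells were, as a sum, also highest in PMM. Of the 13 miRNAs of that list, 6 were listed here with 8 arms, and 5 of the 8 arms were over 1.5-fold higher in PMM than in LDM, as were 42.6% of the 108 miRNAs. Their sum was 21.3 RPM in PMM, 6.20 RPM in LDM, and 1.20 RPM in PL, and the ratio of PMM over LDM was 3.44 (2.77 to 4.32). miR-34b-3p held 278 of the 394 reads of this sum in PMM and 54 of the 103 in LDM, and without it the ratio was 2.13 (1.51 to 3.04), an alternative chosen after seeing the data. In PL, miR-34b, miR-200c, miR-375, and miR-449a-3p had no read, while miR-200b-3p had 5, miR-141-3p 4, and miR-449a-5p 2. Of the 6 miRNAs of the blood and endothelial list, miR-223 alone was listed, and its arms summed to 2.28 RPM in PMM, 2.23 RPM in LDM, and 1.64 RPM in PL. The part of RNA from such other cells in the level of miR-219-3p was not tested.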

How the data were processed

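Of the reads with a 3' adapter, the authors kept those of 16 to 29 nt and discarded what they classed as junk. These were compared by BLAST with miRBase 19.0 precursors from pig and 24 further mammals and with Sscrofa10.2. They deposited whole read counts per miRNA and library, not normalized. A mark in 118 of 456 cells was read as 0 reads. Raw reads that the study states served as library totals, because the conserved entries hold few of the reads.

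miRNAs were named by the most common precursor number. Identical sequences were merged (152 to 145), and 108 with at least 3 reads were compared. Ratios of RPM have exact binomial intervals, levels exact Poisson intervals, and no ratio is given where both libraries have 3 reads or fewer. Other library totals (summed conserved reads with and without miR-26b, median-of-ratios size factors, and TMM), floors, minimums, and folds were tried. Named are the members, miRNAs of 5 marker lists, and the 5 nearest profiles. Members and lists were chosen with earlier results of these data known. Intervals and the 1.5-fold rule were tested on simulated reads with counting error only, so differences between animals or batches were not covered. The rule was scored only at higher expected reads than those of miR-138-5p, and than those of miR-219-3p in LDM over PL. Python 3.11.15, numpy 2.4.6, scipy 1.17.1, pandas 2.3.3, matplotlib 3.10.9, and ViennaRNA 2.7.2 (RNAfold) were used.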

Additional observations from a re-analysis of the deposited data

How the results depend on the processing

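No paired analysis was possible because a muscle is represented by 1 library only, and for the same reason none could be left out. The ratio of miR-219-3p in PMM over LDM (7.76) was 5.55 to 6.60 with the 4 other library totals. Its ratio with PL at the floor was 21.9 to 87.4 for PMM (29.97) and 3.36 to 13.2 for LDM (3.86). The highest of these came with summed conserved reads, and the lowest with the same sum without miR-26b. The ratio of miR-138-5p at the floor for PMM over LDM (1.80) fell under 1.5 with TMM (1.29) and with size factors from medians of ratios (1.43). With a pseudocount of 0.5 read in place of the floor, the ratios to PL were 180.3 for miR-219-3p in PMM, 23.7 for miR-219-3p in LDM, and 6.46 for miR-138-5p in PMM. The number of miRNAs over 1.5-fold in PMM over LDM (46) was 25 under TMM scaling, 29 under size factors from medians of ratios, 27 at a 2-fold limit, and 13 with at least 100 reads, a minimum chosen after seeing the data. For PMM over PL (35) it was 58 with summed conserved reads and 12 with at least 100 reads, and for LDM over PL (24) it was 48 and 11 with these settings. The counts with summed conserved reads depended on miR-26b. With miR-26b left out of the sum, they were 30 for PMM over PL and 24 for LDM over PL. The stricter fold and minimum select fewer by construction, and otherwise the cause was not tested. The median log2 ratio of PMM over LDM was 0.71 with raw reads and 0.22 with TMM. PL has the fewest raw reads, so low levels there are the least certain.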

Other observations

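Within this table, 4 miRNAs had a PMM over LDM ratio above that of miR-219-3p, and none of them shares its absence from PL. They are named here after their values were seen. miR-411c-5p had 16 reads in PMM, 1 in LDM, and 58 in PL. miR-208a-3p, of the muscle miRNAs set as markers, had 13 reads in PMM, 1 in LDM, and 118 in PL. miR-301b-3p had 11 reads in PMM, 1 in LDM, and 5 in PL, and miR-216b-5p had 44 reads in PMM, 0 in LDM, and 4 in PL. Each of these 4 rests on 0 or 1 read in LDM, whereas the ratio of miR-219-3p rests on 21.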
